A study of Mus musculus with 16 samples.

Results

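The genes described here build and run the transport system of the photoreceptor cilium. They comprise 45 listed genes in 7 role groups: 11 genes of the intraflagellar transport B complex, 3 of the A complex, 7 subunits of the BBSome, 4 genes that assemble or recruit it, 4 carriers of lipid-modified proteins, 10 genes of the connecting cilium and transition zone, and 6 motor genes. They were chosen by symbol alone, and all 45 were found among the 45038 genes with summed counts. All 45 also reached the expression minimum of 5 CPM (counts-per-million) in at least 4 libraries, which 12177 genes passed. RNA was measured in rod photoreceptors that were flow sorted from C57BL/6J mice with green fluorescent protein under the Nrl promoter (Nrlp-GFP), at 3, 12, 18 and 24 months of age (3M, 12M, 18M and 24M), with 4 libraries per age. All 16 libraries carry the same strain label, so every age shares the reporter; Nrl is a transcription factor that sets rod fate, and its promoter is active in rods. The sources used here do not say whether a library is 1 mouse or a pool, and p-values therefore measure the spread between libraries. Total estimated counts ran from 20579144 to 28791777 per library.

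A rod makes no membrane protein in its outer segment, which is a modified cilium, so every disc protein must pass the narrow connecting cilium. Intraflagellar transport trains carry cargo along the axoneme, outward on kinesin with the B complex and back on the ciliary dynein with the A complex. The BBSome is an adaptor that moves membrane proteins across the ciliary gate, and the carriers Unc119 and Pde6d ferry lipid-modified phototransduction proteins that the GTPase Arl3 releases inside the cilium. Mutations in many of these genes cause retinal dystrophies in people.

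Promoter windows of RefSeq (GRCm38.p6, 250 bases before to 50 bases after the annotated start) were found for 41 of the 45 genes. Ift80, Ift81, Ift122 and Dync2li1 had no window in the table used. Both strands were searched for the X-box, the site that RFX transcription factors bind in promoters of many ciliary genes, written as the arms GTTNCC and GGNAAC with 2 or 1 bases of any kind between them. The form with 2 bases was in the windows of 2 members, Ahi1 and Bbs7, that is 4.88% of the 41 against 0.529% of 27025 genes. Of 62 cilium genes outside the 45, 6 had it, or 9.68%, so it was not particular to the members. The form with 1 base was in 1 member, Ift57, that is 2.44% against 0.311% of all genes and 1.61% of the 62. These windows are shown because Rfx2, of the RFX family, was among the cilium genes called in these rods. The matched letters are in capitals, read along the gene's own strand (chr3:36613489-36613518, minus strand, for Bbs7; chr10:20952560-20952589, plus strand, for Ahi1; chr16:49699226-49699255, plus strand, for Ift57).
Bbs7: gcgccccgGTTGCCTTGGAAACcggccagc
Ahi1: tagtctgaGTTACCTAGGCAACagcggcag
Ift57: gccctgcgGTTGCCTGGTAACggtggggac

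Each of these matches also holds the single arm GTTGCC, on the forward or the reverse strand. This arm was in 16 of the 41 members, 39.0%, against 14.1% of all genes and 26 of 62 other cilium genes, 41.9%. It lies, for example, in the windows of the motor gene Kif3a (chr11:53567259-53567288, plus strand) and of Ift88 (chr14:57424080-57424109, plus strand, where the match reads on the opposite strand).
Kif3a: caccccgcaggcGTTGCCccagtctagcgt
Ift88: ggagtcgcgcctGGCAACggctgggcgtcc
TAATCC, the core letters bound by photoreceptor homeobox factors such as Crx, was in 3 members, 7.32%, which is close to the 8.14% of all genes. It is shown because both members with the highest level, Rpgrip1 (chr14:52110863-52110892, plus strand) and Unc119 (chr11:78345454-78345483, plus strand), are among those 3, each with the match on the opposite strand. The third is Bbs1, which had the lowest level of the 7 BBSome subunits. A match describes letters in a window and does not show binding.
Rpgrip1: gctaaaaggcctGGATTAgtgtctcctcta
Unc119: tttgctgtttctGGATTAccaggccttgaa

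Summed CPM of 8 rod markers was 27506 to 35380 at 24M, against 34111 to 37876 at 3M. Bipolar cell markers summed to 210.2 to 256.4 CPM at 24M, against 234.5 to 270.3 at 3M, cone markers to 83.7 to 109.0, against 64.6 to 113.3, and endothelial markers to 28.9 to 33.4, against 24.1 to 31.9. The 5 markers of the pigment epithelium summed to 2.59 to 4.13 CPM at 24M, against 2.93 to 5.01 at 3M, and of them Rpe65 stayed under 0.5 CPM in all 16 libraries. The 7 microglia markers summed to 4.05 to 4.97 CPM at 24M, against 2.55 to 4.2 at 3M, and 5 of them, Aif1, P2ry12, C1qa, C1qb and C1qc, stayed under 0.5 CPM throughout. Müller glia markers summed to 152.1 to 261.0 CPM at 24M, against 115.5 to 231.8 at 3M, with the highest sum, 413.9, at 12M. The part of these other cells in the results was not tested. Of 9 markers of motile cilia, Dnah5, Ccdc40, Rsph1, Hydin and Tekt1 stayed under 0.5 CPM in every library, whereas the axonemal dynein gene Dnah9 averaged 10.2 TPM (transcripts-per-million) and Ccdc39 7.97 TPM. In sorted cells, a smaller amount of a transcript per cell cannot be told apart from a smaller share of cells that carry it. 12M replicate 4, 18M replicate 3 and 24M replicate 3 stood apart from the other libraries of their ages in many members, and they are the libraries that the authors' normalized table leaves out. Results that rest on them are given with and without them.

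**Figure D1:**
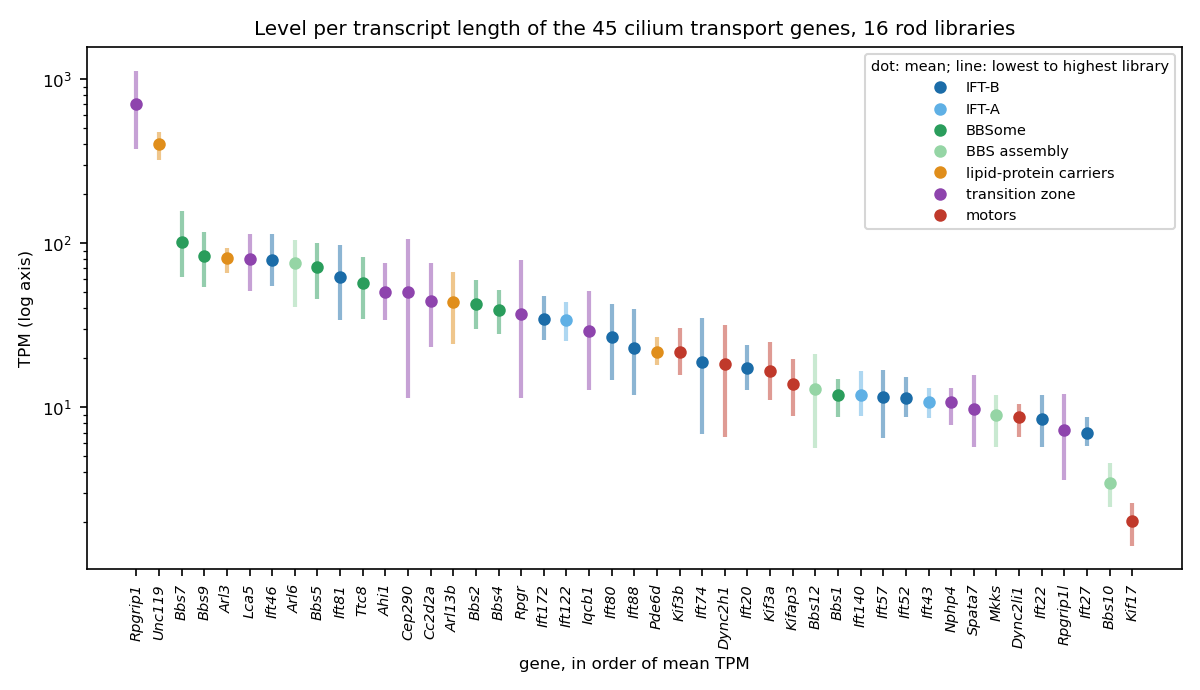
Level per transcript length (TPM, log axis) of each of the 45 genes over 16 libraries, in order of the mean; dots are means, lines run from the lowest to the highest library, and colours give the role group. Rpgrip1 and Unc119 stand above all the others, and Bbs10 and Kif17 stand lowest.

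On the scale of TPM, which divides by annotated transcript length, the 45 genes spanned from 2.01 to 705 TPM with a median of 22.8. Rpgrip1, which anchors Rpgr at the connecting cilium, had the highest level, 705 ± 213.8 TPM (SD, n = 16 libraries). Unc119, the carrier of acylated transducin, followed with 403.6 ± 41.1 TPM, and Rpgrip1 exceeded it in 15 of 16 libraries. Unc119 in turn exceeded the next gene, Bbs7, in all 16 libraries, and their ranges did not overlap. From Bbs7, at 102.2 TPM, down to Ift27, at 6.99 TPM, each gene's range of library values overlapped that of its neighbour in the order. Within libraries, Bbs5 nonetheless exceeded Ift81, Ift80 exceeded Ift88 and Kif3a exceeded Kifap3 in 16 of 16, and Bbs7 exceeded Bbs9 in 15, whereas the higher gene of each other pair in this stretch was ahead in 7 to 14 libraries. The lowest Ift27 library, at 5.76 TPM, stood above the highest of Bbs10, at 4.54 TPM. The ranges of Bbs10 and Kif17 overlapped, but Bbs10 exceeded Kif17 in 16 of 16 libraries.

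By role group, BBSome subunits had a median of 56.8 TPM and ran from Bbs1, at 11.9 TPM, to Bbs7. Connecting cilium and transition zone genes had a median level of 40.5 TPM, from Rpgrip1l at 7.29 TPM to Rpgrip1. The B complex of intraflagellar transport had a median of 18.9 TPM, from the small GTPase Ift27 at 6.99 TPM to Ift46 at 78.7 TPM, and the A complex ran from Ift43 at 10.8 TPM to Ift122 at 33.9 TPM. Chaperonin-like Bbs10 and Mkks stood at 3.46 and 8.95 TPM, against 75.4 TPM for Arl6, the GTPase that recruits the BBSome to membranes. Motors had a median of 15.3 TPM, against 11.9 TPM for the A complex, 10.9 TPM for the BBSome assembly and recruitment genes and 62.2 TPM for the carriers. All genes tested had a median of 9.52 TPM. Kif3b was the highest motor at 21.7 TPM. Kif17, a kinesin linked to outer segment growth in zebrafish, was the lowest of all 45 at 2.01 ± 0.359 TPM. These levels depend on which transcript models received the counts, which for Rpgrip1 were mostly not coding models.

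The comparison of 24M with 3M rods asked which of these genes change over most of the animal's life. A single member passed the test: Dync2li1, the light intermediate chain of the dynein that drives return transport in cilia, was lower at 24M. That is 1 of 45 members, with 0 higher, where 4.25% of the 12177 genes tested passed, 1.6% lower and 2.65% higher, so the members' share, 2.22%, was near the background. Among the 45 genes, 28 had a fold change below 0 and 17 above it, and their median log2 fold change was -0.06, against 0.011 for all genes tested. The sign of that median was not stable: it was 0.022 without 24M replicate 3, 0.023 without the 3 libraries that stand apart and 0.034 in limma voom with quality weights. In the authors' deposited table, 26 members were above 0 and 19 below at 24M. Before adjustment, 6 members had a p under 0.05 (Dync2li1, Kif3a, Ift43, Kif3b, Arl3 and Ahi1), that is 13.3% of the members against 14.0% of all genes.

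**Figure D2:**
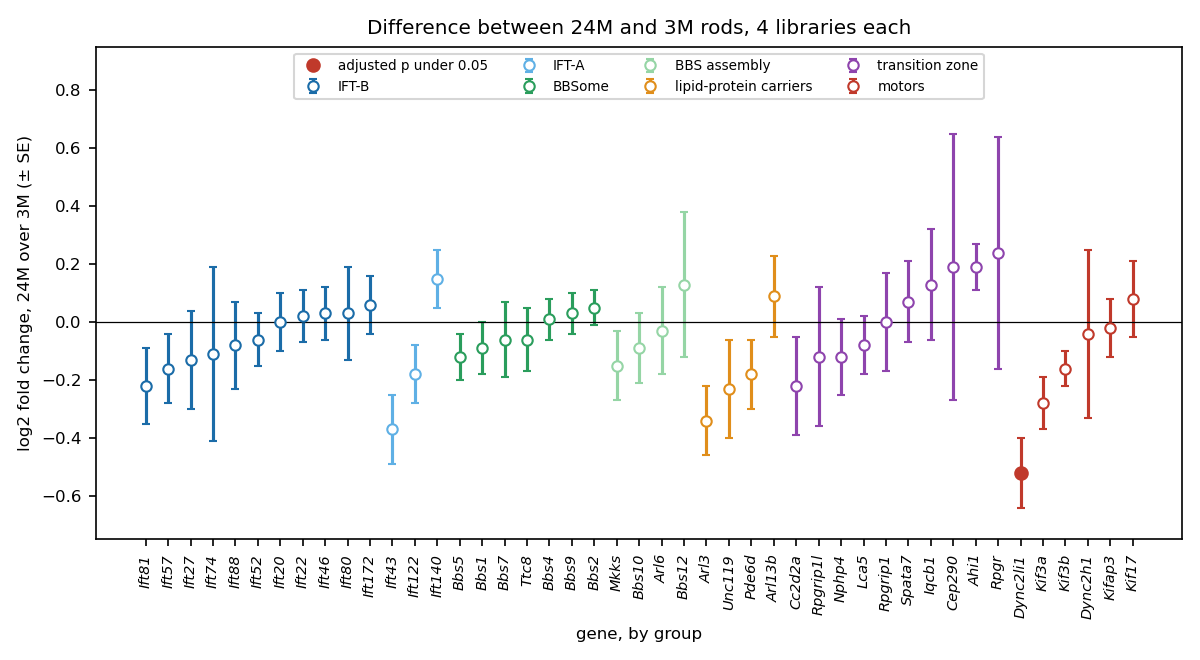
Log2 fold change of 24M over 3M for each of the 45 genes with its standard error, by role group (edgeR quasi-likelihood fit over 16 libraries). Dync2li1, the filled point at -0.52, is the 1 gene past an adjusted p of 0.05, and Cep290 and Rpgr have the widest bars.

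Dync2li1 (ENSMUSG00000024253, chr17:84626496-84655558, GRCm38) had 14.0, 14.9, 15.2 and 13.1 CPM in the 24M libraries, against 20.8, 20.1, 19.8 and 21.4 CPM in the 3M libraries. Every 24M library lay below every 3M library. The log2 fold change was -0.52 ± 0.12 (SE), with an adjusted p of 0.013 in edgeR's quasi-likelihood test with Benjamini-Hochberg adjustment over all genes tested. The call ended when 24M replicate 4 was left out, where the adjusted p was 0.056 and the log2 fold change -0.48. Of the 12M libraries, 3 stood at 14.9, 14.0 and 14.3 CPM, while 12M replicate 4 stood at 20.8, at the level of 3M rods. At 18M the gene had 16.5, 16.7, 14.0 and 15.2 CPM. A fit of age as a linear term gave -0.024 ± 0.0052 on the log2 scale per month (adjusted p = 0.0084, edgeR), and Dync2li1 was the 1 member called there, in the lower direction, where 4.8% of all genes were called, 1.95% lower and 2.84% higher.

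None of the other motor genes passed the test. Kif3a and Kif3b are the motor subunits of the heterotrimeric kinesin that drives outward transport. With Dync2li1 they were the 3 members whose 24M libraries all lay below the 3M libraries; 5.32% of all genes tested did so, and 0 members had all 24M libraries above, against 5.28%. Kif3a had 57.4, 53.7, 44.8 and 49.5 CPM at 24M, against 63.2, 64.8, 63.2 and 58.7 CPM at 3M. Its log2 fold change was -0.28 ± 0.09 (adjusted p = 0.096, edgeR), and the adjusted p ranged from 0.0014 to 0.25 over the alternatives. Kif3b had 159.9, 159.2, 152.8 and 152.3 CPM at 24M, against 168.4, 184.0, 169.4 and 176.7 CPM at 3M, with a log2 fold change of -0.16 ± 0.06 (adjusted p = 0.16, edgeR). Its libraries varied little within an age: its SD of 0.04 on the log2 scale was at percentile 0.2 of all genes tested. Their partner Kifap3, the accessory subunit, had 75.2, 74.3, 60.0 and 75.7 CPM at 24M and 81.5, 78.5, 66.9 and 61.4 CPM at 3M, and the libraries overlapped. Kif17 had 6.72, 7.73, 7.59 and 6.43 CPM at 24M, within its 5.8, 5.36, 7.37 and 8.47 CPM at 3M. Dync2h1, the heavy chain that Dync2li1 binds, had 262.7, 230.1, 98.6 and 239.7 CPM at 24M and 255.8, 246.2, 190.7 and 159.8 CPM at 3M, too wide a spread to show a difference of the size seen for its light intermediate chain.

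**Figure D3:**
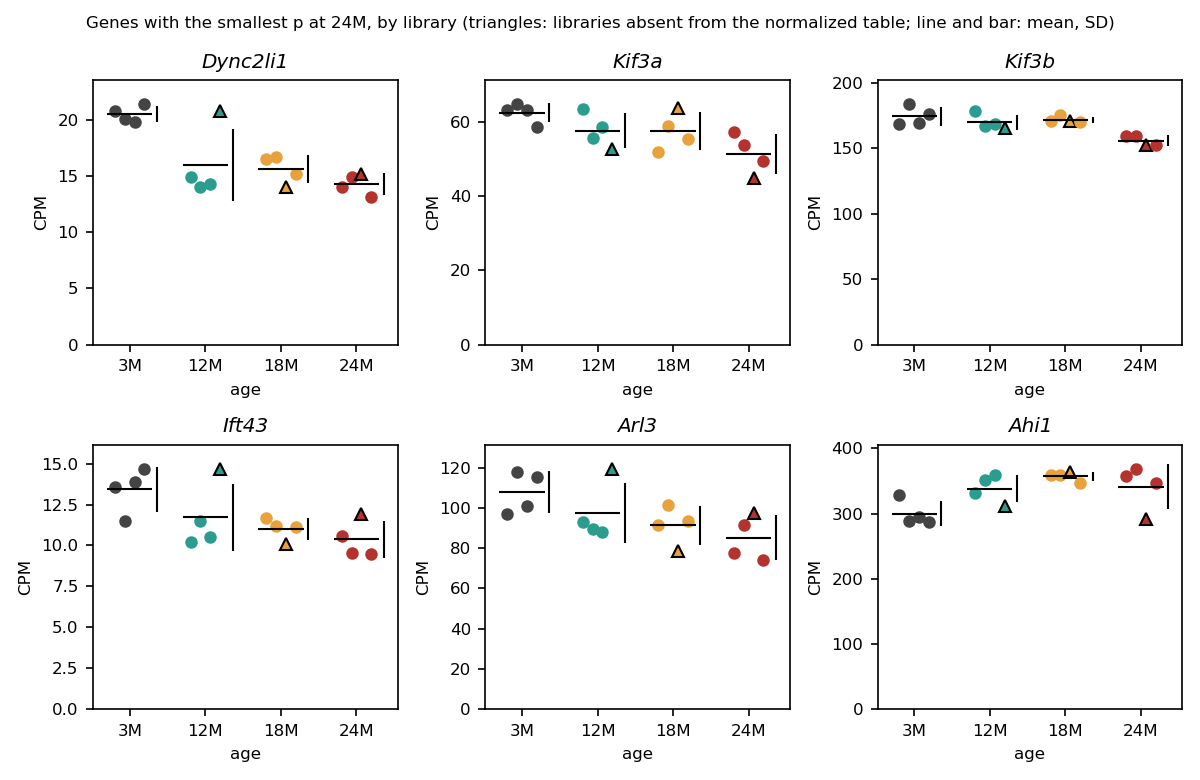
CPM by library and age for the 6 members with an unadjusted p under 0.05 at 24M; triangles mark the 3 libraries absent from the authors' normalized table, lines are means and bars SDs over 4 libraries. All 24M values of Dync2li1, 13.1 to 15.2, lie below all 3M values, 19.8 to 21.4, whereas the 24M and 3M values of Ift43, Arl3 and Ahi1 overlap.

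None of the 14 intraflagellar transport genes passed the test at 24M. In the A complex, Ift43 had 10.6, 9.55, 11.9 and 9.46 CPM at 24M, against 13.6, 11.5, 13.9 and 14.7 CPM at 3M. Its log2 fold change was -0.37 ± 0.12 (adjusted p = 0.12, edgeR), with 1 library of each age in the other's range. Ift140 had 72.9, 74.6, 97.9 and 73.0 CPM at 24M and 66.7, 66.6, 78.9 and 74.3 CPM at 3M, with 24M replicate 3 alone above the rest. The 11 genes of the B complex had 24M fold changes between -0.22 and 0.06 on the log2 scale. Ift88, a core subunit without which cilia fail to form, had 71.2, 69.4, 45.9 and 70.4 CPM at 24M, against 75.3, 69.3, 67.3 and 59.9 CPM at 3M. Ift172, the largest subunit of the complex, had 93.9, 90.2, 115.2 and 94.1 CPM at 24M, against 83.3, 91.2, 98.7 and 104.0 CPM at 3M. In 24M replicate 3, Ift88 was thus low while Ift172 was high. Ift27, a small GTPase that also links the trains to the BBSome, had 8.73, 11.2, 14.0 and 8.74 CPM at 24M, against 10.1, 11.4, 12.5 and 12.7 CPM at 3M, and its 24M values spanned more than the 3M range.

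The BBSome showed the narrowest fold changes of the groups with more than 4 genes. Its 7 subunits lay between -0.12 and 0.05 on the log2 scale at 24M, with 0 called and 0 at an unadjusted p under 0.05. Bbs2 had 135.4, 135.1, 139.7 and 144.5 CPM at 24M and 137.9, 128.9, 137.4 and 130.2 CPM at 3M, and its within-age SD of 0.05 (log2) was at percentile 0.3 of all genes. Bbs4, which links the complex to centriolar satellites, had 140.6, 136.8, 120.3 and 138.2 CPM at 24M, against 139.9, 145.2, 124.8 and 123.0 CPM at 3M. Bbs1, the subunit that Arl6 binds, had 92.6, 88.4, 112.2 and 88.1 CPM at 24M, against 88.8, 103.0, 105.1 and 108.4 CPM at 3M, and the ages overlapped. Bbs12, a chaperonin-like assembly factor, had 42.1, 42.4, 28.0 and 47.9 CPM at 24M, within its 52.8, 41.1, 30.1 and 23.1 CPM at 3M.

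Of the 4 carrier genes, 3 had a fold change below 0 at 24M, and none passed the test. Arl3 had 77.5, 91.3, 97.6 and 74.3 CPM at 24M, against 96.8, 117.7, 100.7 and 115.4 CPM at 3M. Its log2 fold change was -0.34 ± 0.12 (adjusted p = 0.16, edgeR), and 1 library, 24M replicate 3, reached into the 3M range. Unc119 had 537.8, 633.7, 838.9 and 559.1 CPM at 24M, against 686.1, 735.9, 760.8 and 840.0 CPM at 3M, and again 24M replicate 3 alone lay within the 3M values. Pde6d, which carries prenylated proteins, had 31.6, 32.6, 35.4 and 30.3 CPM at 24M, against 32.7, 35.8, 39.0 and 39.2 CPM at 3M. Arl13b, which activates Arl3 in the cilium, had 121.7 CPM in 24M replicate 3 and 179.4 to 192.8 CPM in the other 24M libraries, against 141.8 to 172.1 CPM at 3M.

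Connecting cilium and transition zone genes varied most, and none passed the test at 24M. Ahi1, a scaffold of the transition zone, had 357.7, 369.0, 291.7 and 347.2 CPM at 24M, against 328.3, 288.7, 294.3 and 287.1 CPM at 3M. Its log2 fold change was 0.19 ± 0.08 (adjusted p = 0.3, edgeR), and 24M replicate 3 alone lay in the 3M range. Rpgrip1 had 2306, 2014, 1647 and 2246 CPM at 24M, against 2146, 2066, 2217 and 1771 CPM at 3M, and the ages overlapped. Spata7, which holds the distal connecting cilium of photoreceptors together, had 24.9, 22.5, 17.2 and 23.2 CPM at 24M, against 24.2, 22.4, 18.6 and 18.6 CPM at 3M. Lca5, whose protein lebercilin binds transport trains, had 212.8, 198.4, 154.0 and 199.5 CPM at 24M, against 202.1, 209.3, 195.3 and 199.6 CPM at 3M. Apart from 24M replicate 3, the Lca5 values of both ages overlapped.

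Over all 16 libraries, Cep290 and Rpgr differed more between libraries of the same age than between ages. Cep290, which tethers the axoneme of the connecting cilium to its membrane (chr10:100488289-100573655), had 646.6, 566.6, 154.6 and 574.4 CPM at 24M, against 630.1, 513.9, 325.2 and 228.1 CPM at 3M. At 12M it had 736.0, 788.7, 745.1 and 195.5 CPM, and at 18M 566.5, 569.1, 849.1 and 359.5 CPM. Its highest library was 5.49 times its lowest, and its within-age SD of 0.8 (log2) was at percentile 99.5 of all genes tested. Rpgr, a regulator of small GTPases at the connecting cilium that is encoded on the X chromosome, followed nearly the same order of high and low libraries, with 189.0, 154.0, 52.7 and 166.4 CPM at 24M, against 154.5, 137.8, 111.8 and 72.9 CPM at 3M. It had 184.7, 204.9, 197.1 and 56.7 CPM at 12M, and 158.3, 157.2, 243.5 and 123.6 CPM at 18M. The 24M log2 fold change was 0.19 ± 0.46 for Cep290 (adjusted p = 0.93) and 0.24 ± 0.4 for Rpgr (adjusted p = 0.88, edgeR), so a change as large as that of Dync2li1 in either direction was not detectable. With 1 library left out, the fold change ran from -0.01 to 0.49 for Cep290 and from 0.06 to 0.51 for Rpgr. Without the 3 libraries that stand apart, every 12M value of both genes lay above every 3M value, where 20.8% of all genes did. Both were called at 12M in that fit, where 38.2% of all genes were, and neither was called at 24M. The standard error had a median of 0.12 over the 45 members.

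**Figure D4:**
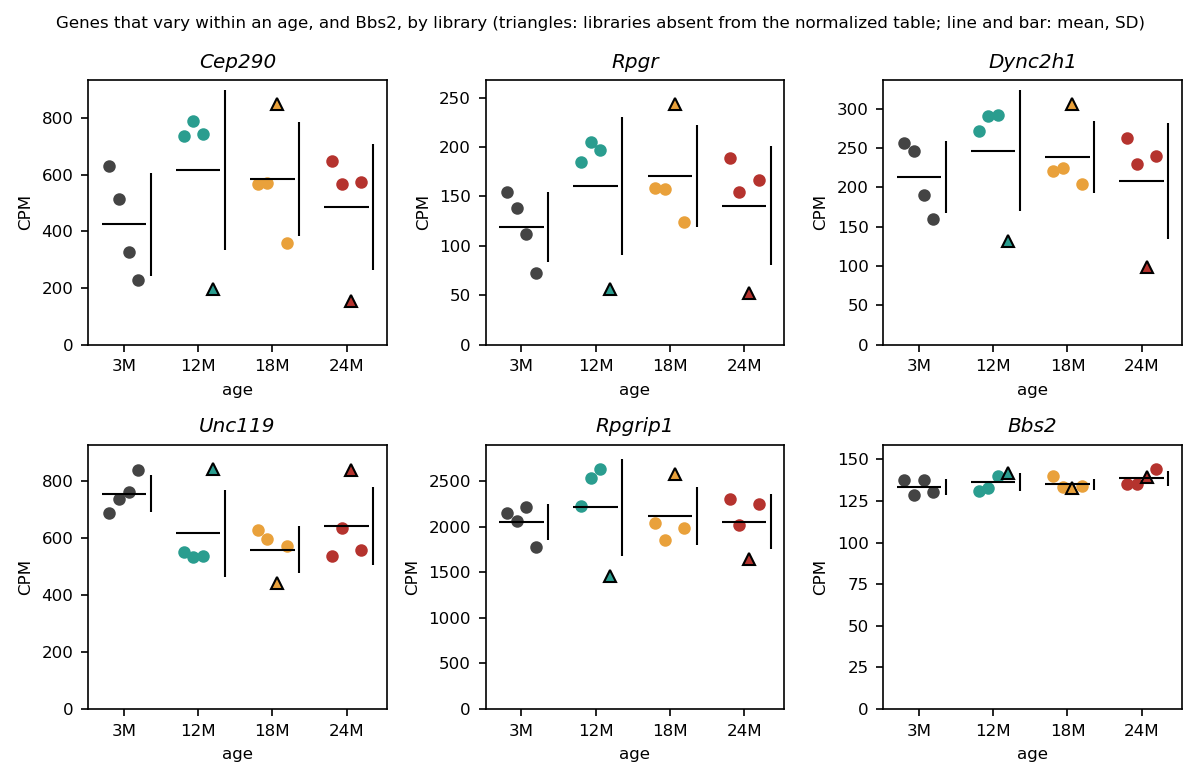
CPM by library and age for 5 members that vary within an age and for Bbs2, which does not; triangles mark the 3 libraries absent from the authors' normalized table, lines are means and bars SDs over 4 libraries. Cep290, Rpgr and Dync2h1 are lowest at 12M and 24M in the libraries where Unc119 is highest.

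The spread between libraries was correlated with the base composition of the transcripts. The values of each library were set against the mean of the other 3 libraries of its age, and members were split at a GC content of 43% and 50%. These bounds were chosen after the values were seen, so the counts by bound are a description and not a test. In 24M replicate 3, all 13 members with at least 50% GC were above the rest of their age (median 0.31, log2) and all 7 members under 43% GC were below it (median -0.66), with Cep290, at 37.9% GC, the lowest at -1.94. In 12M replicate 4, all 13 were likewise above (median 0.25) and all 7 below (median -0.92). In 18M replicate 3 the order was turned round, with all 13 below (median -0.17) and all 7 above (median 0.31). The 25 members between the bounds went both ways, with 3 above and 22 below in 24M replicate 3. They had 3 above and 21 below in 12M replicate 4, from -1.78 to 0.53, and 16 above and 8 below in 18M replicate 3. Across the 45 members, which share each library, the ratio and GC content had a Pearson correlation of 0.81 in 24M replicate 3, 0.71 in 12M replicate 4 and -0.7 in 18M replicate 3. Across all 12177 genes tested it was 0.67, 0.58 and -0.48. Other libraries had member correlations of similar size, such as -0.83 in 24M replicate 4, -0.81 in 3M replicate 1 and 0.79 in 3M replicate 4. Across all genes these were -0.49, -0.51 and 0.54. The weakest member correlations were 0.36 and 0.26, in 18M replicates 1 and 2. At 12M, 18M and 24M, the mean set against those other libraries includes the library that stands apart. The slope of a library's log2 CPM per 10 percentage points of GC was 0.505 in 24M replicate 3, 0.371 in 12M replicate 4 and -0.294 in 18M replicate 3, while 3M replicate 4 had 0.278. The slope on log2 transcript length was -0.0815 in 24M replicate 3, -0.0474 in 12M replicate 4 and 0.0839 in 18M replicate 3. For 12M replicate 3 it was 0.0749. Whether these slopes come from the RNA or from library preparation was not tested.

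**Figure D5:**
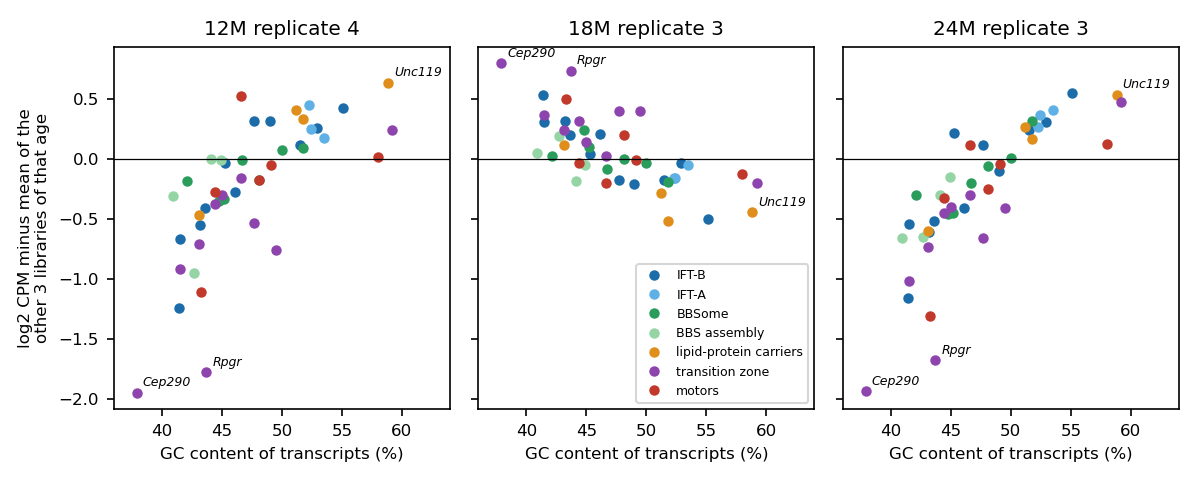
Log2 CPM of each of the 45 members in a library minus the mean of the other 3 libraries of its age, against the GC content of the gene's transcripts (%), for the 3 libraries absent from the authors' normalized table; colours give the role group. The points climb with GC in 12M replicate 4 and 24M replicate 3 and descend in 18M replicate 3, with Cep290 and Rpgr farthest from 0.

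How many members were called at 24M depended on how this spread was handled. With each library's GC slope as a term of the fit, 17 members were called, 15 lower and 2 higher, that is 37.8% against 20.3% of all genes in that fit. Of all genes, that fit called 1253 lower, or 10.3%, and 1221 higher. Without the 3 libraries, 9 members were called, 7 lower and 2 higher, or 20% against 23.7% of all genes. Of all genes, 1398 were called lower, or 11.5%, and 1482 higher when those libraries were left out. Voom in limma with quality weights, which count such libraries less, called 13 members, 28.9% against 27.2% of all genes, and a fit with each library's slope on transcript length called 6, 13.3% against 11.4%. DESeq2 called 3, Dync2li1, Kif3a and Kif3b, 6.67% against 6.34%. In those 13 libraries Ift43, Ift122, Arl3, Unc119, Pde6d, Kif3a and Dync2li1 were the 7 lower members and Ahi1 and Arl13b the 2 higher. Dync2li1, Kif3a, Ift43, Arl3, Ift122, Unc119 and Ahi1 were called in both of these fits. Among the 13 libraries, 8 members had every 24M value below every 3M value, where 14.3% of all genes did, and 2 had every value above, where 16.2% did.

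At 18M, 0 of 45 members passed the test against 3M, where 2.64% of all genes did. DESeq2 called 2 members, Ahi1 higher and Dync2li1 lower, where it called 4.34% of all genes, and limma voom with quality weights called 6, where it called 9.12%. Before adjustment, 8 members had a p under 0.05, that is 17.8% against 12.4% of all genes, and the median log2 fold change was 0.007 in members and in all genes. All 18M libraries lay above all 3M libraries for Ahi1 and Arl13b and below them for Unc119 and Dync2li1, so 2 members were higher and 2 lower, where 7.22% and 6.46% of all genes were. Ahi1 had 359.5, 359.4, 363.1 and 346.7 CPM at 18M, the tightest of its ages. Arl13b had 182.0, 188.9, 204.4 and 192.6 CPM at 18M, against 171.4, 172.1, 149.4 and 141.8 CPM at 3M. Unc119 had 628.0, 595.6, 440.9 and 571.1 CPM at 18M.

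At 12M, 0 members passed against 3M, where 1.39% of all genes did, and DESeq2 also called 0, where it called 2.57% of all genes. Before adjustment, 4 members had a p under 0.05, that is 8.9% of members against 9.15% of all genes. No member's 12M libraries lay wholly above or below the 3M libraries, where 5.09% of all genes did. That changed without the 3 libraries that stand apart. There, 8 members had every 12M value above every 3M value, where 20.8% of all genes did, and 6 had every value below, where 20.2% did. Without 12M replicate 4 the values of several members closed up. Unc119 had 549.9, 532.9 and 537.2 CPM in the other 12M libraries and 843.6 CPM in replicate 4. Arl3 had 93.1, 89.3 and 87.8 CPM there, against 119.5 CPM in replicate 4. Leaving out that library gave 1 member called at 12M, Dync2li1, where 4.38% of all genes were called. Among the 13 libraries, 18 members were called, 9 higher and 9 lower, that is 40% against 38.2% of all genes. Of all genes in that fit, 2368 were called higher and 2284 lower. Quality weights gave 22 members, or 48.9% against 47.9%.

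Across the 4 ages together, 0 members passed the test of any difference, where 2.82% of all genes passed. Before adjustment 4 members had a p under 0.05, namely Dync2li1, Kif3a, Ift43 and Ahi1, that is 8.9% against 10.8% of all genes, and DESeq2 called 2 members, Dync2li1 and Kif3b, where it called 5.46% of all genes; quality weights gave 21, or 46.7% against 44.6%. In the authors' deposited table, which gives 1 F test over the ages, 10 of the 45 members had an adjusted p under 0.05, or 22.2%, against 26.7% of 11826 genes. The authors' deposited table gave Dync2li1 the smallest adjusted p of the members, 0.000732, with log2 differences from 3M of -0.51 at 12M, -0.35 at 18M and -0.556 at 24M. The other members under 0.05 in the authors' deposited table were Unc119, Ahi1, Arl3, Pde6d, Ift43, Ift27, Rpgr, Ift88 and Rpgrip1.

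Transcript models were tested apart because 36 of the 45 genes have more than 1. Of 202 member transcripts tested at 24M, 0 passed in edgeR, where 1.33% of 43572 transcripts passed, 18 had an unadjusted p under 0.05, that is 8.91% against 9.97% of all transcripts, and DESeq2 called 5, that is 2.48% against 2.58%. The smallest adjusted p belonged to Kif3a-201, a protein-coding model with 25.7, 22.6, 23.3 and 21.7 CPM at 24M, against 32.3, 32.9, 28.8 and 30.4 CPM at 3M (adjusted p = 0.052, edgeR). Lca5-202, a coding model of 2001 bases, had 14.5, 11.7, 13.3 and 15.6 CPM at 24M, against 22.0, 21.2, 21.6 and 23.4 CPM at 3M (log2 fold change -0.68 ± 0.16, adjusted p = 0.061, edgeR). The sum over all Lca5 models overlapped between the 24M and 3M libraries.

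In 5 members, more than 50% of the estimated counts lay on models that are not annotated as protein-coding. Ift80 had 89.2% ± 3.02 of its counts there (SD, n = 16), Rpgrip1 85.5% ± 1.17, Ift46 69.0% ± 4.07, Bbs5 59.6% ± 3.77 and Iqcb1 52.1% ± 4.32. The leading Rpgrip1 model was Rpgrip1-218, a retained-intron model with 38.8% of the gene's counts, so the high level of Rpgrip1 is not one of coding transcripts alone. The deposited counts carry no error of the assignment to models. Overlapping genes on the opposite strand touch 17 members, 10 of them with a partner of at least 5 CPM, among them Rpgrip1, which shares 3133 bases with Supt16 at 277.3 CPM. No source used here says whether counting used strand.

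Other cilium genes outside the 45 were taken from fixed lists of 74, of which 65 were tested. Besides transport and transition zone genes, the lists hold axoneme and kinase genes, ciliary GTPases and transcription factors of ciliogenesis. At 24M, 3 of the 65 passed, 2 lower and 1 higher, that is 4.62% against 4.25% of all genes, and the 65 genes' median log2 fold change was -0.086. Cluap1, a further B complex subunit, had 56.9, 65.1, 59.4 and 60.0 CPM at 24M, against 71.5, 74.9, 73.8 and 67.6 CPM at 3M. Its log2 fold change was -0.25 ± 0.07 (adjusted p = 0.04, edgeR), and leaving out any of 12 libraries ended the call, with an adjusted p of up to 0.14; the 4 libraries that could be left out with the call kept were 24M replicate 2, 12M replicates 1 and 4 and 3M replicate 4. Wdpcp, a planar polarity effector needed for ciliogenesis, had 24.7 to 29.5 CPM in the 4 libraries at 24M, against 32.0 to 36.4 CPM in the 4 at 3M. Its log2 fold change was -0.32 ± 0.09 (adjusted p = 0.043, edgeR), and leaving out any of 12 libraries ended that call too, with an adjusted p of up to 0.17. Here the 4 were 24M replicate 2 and 12M replicates 1, 2 and 4. With age as a linear term, Cluap1 (adjusted p = 0.025, edgeR) and Wdpcp (adjusted p = 0.015, edgeR) were both called lower. They were 2 of the 65, or 3.08%, against 4.8% of all genes. The Cluap1 call was lost without any one of 5 libraries, and that of Wdpcp only without 3M replicate 2.

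Rfx2, a factor of the family that binds the X-box, was higher at 24M, with 17.2, 15.1, 21.4 and 16.5 CPM, against 10.8, 12.0, 11.4 and 14.2 CPM at 3M. All 24M libraries lay above all 3M libraries, and the log2 fold change was 0.54 ± 0.11 (adjusted p = 0.0093, edgeR). At 12M it had 12.7 to 13.4 CPM and at 18M 11.4 to 13.8 CPM, so the higher values were those of 24M. Rfx2 also passed the test of any difference among ages (adjusted p = 0.027), the 1 cilium gene of these lists that did. That call was lost without any one of 7 libraries (24M replicates 1, 3 and 4, 18M replicate 1, and 3M replicates 1, 2 and 3), with an adjusted p of up to 0.085. Leaving out any single library did not end its 24M call. The call ended with no expression filter (adjusted p = 0.052) and in a fit of 24M and 3M libraries alone (adjusted p = 0.087, edgeR). Of the 3 members with a full X-box in the window, Bbs7 had 271.1, 249.6, 192.6 and 275.7 CPM at 24M, against 300.9, 267.1, 239.0 and 225.2 CPM at 3M. Ift57 had 22.2, 21.4, 16.5 and 22.2 CPM at 24M, against 25.5, 24.6, 20.6 and 21.4 CPM at 3M. Neither gene passed the test, nor did Ahi1.

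The small GTPases that bring carrier vesicles to the cilium base, such as Rab8a and Rab11a, gave 0 calls of 6 at 24M, and 13 axoneme and kinase genes, such as Rp1 and Mak, gave 0, where 4.25% of all genes were called.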

How the data were processed

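The authors deposited estimated counts per transcript for 16 libraries; kallisto 0.42.5, GRCm38.p4, limma 3.32.2 and edgeR 3.13.9 are listed without roles in the submitters' processing notes. Per the labels' protocols, 4 ng of total RNA went into stranded libraries amplified over 13 PCR cycles, and sorted cells were over 98% pure. The authors also deposited gene CPM and, for 13 libraries, normalized CPM (both a signal scaled by library), and a table with log2 differences from 3M, an F score and its p-value, per the file headers.

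Estimated counts of 111896 of 113468 transcripts were summed to genes through the GENCODE M21 annotation of GRCm38 and rounded; the rest held 0.73% to 1.08% of a library's counts. Features that reached 5 CPM (genes) or 1 CPM (transcripts) in 4 or more libraries went into edgeR 4.0.16 (quasi-likelihood, TMM factors, a mean per age over 16 libraries, R 4.3.3), with Benjamini-Hochberg adjustment over all features tested and a threshold of 0.05. CPM in the text uses TMM factors, and TPM divides by annotated transcript length. Library ratios against GC content took log2 of CPM plus 0.1. Alternatives used DESeq2 1.42.0, limma 3.58.1, other filters and scalings, covariates, the 13 libraries and each library left out in turn. Counting precision covers counting error only, since reads after PCR are not independent molecules.

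Every member may be named; library values are given for members that passed a test, for the member with the smallest p among ages in each role group and for a fixed set of 16. Arl13b, Bbs2, Bbs7, Ift57, Kif3b, Kifap3 and the models Kif3a-201 and Lca5-202 are given beyond that rule, chosen after their values were seen. The members, lists and tests were chosen with earlier results of these data known.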

Additional observations from a re-analysis of the deposited data

Results flagged for a closer look

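Of 84 groups of 4 libraries of 1 named member at 1 age, 15 held a library far from the other 3, that is 17.9%, where chance gives about 1 in 20 for a single group. The 21 named members share the same 16 libraries, so the groups are not independent. One library that stands apart can flag many members, so the 17.9% is a description and not a test. Of these, 9 fell on 12M replicate 4, 4 on 24M replicate 3 and 2 on 18M replicate 3, the libraries absent from the authors' normalized table.

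In 12M replicate 4, values stood above the other 12M libraries for Unc119 (843.6 CPM, the others 532.9 to 549.9), Arl3 (119.5 CPM, the others 87.8 to 93.1), Ift172 (108.3 CPM, the others 89.0 to 91.8), Dync2li1 (20.8 CPM, the others 14.0 to 14.9) and Ift27 (11.0 CPM, the others 7.98 to 8.22). Values stood below them for Cep290 (195.5 CPM, the others 736.0 to 788.7), Dync2h1 (131.8 CPM, the others 271.6 to 291.2), Rpgr (56.7 CPM, the others 184.7 to 204.9) and Ift88 (54.1 CPM, the others 77.9 to 81.3).

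In 24M replicate 3, Cep290 stood at 154.6 CPM, where the other 24M libraries had 566.6 to 646.6, and Ift88 at 45.9 CPM, where they had 69.4 to 71.2. Ift172 at 115.2 CPM and Ift140 at 97.9 CPM stood above the other 24M libraries, which had 90.2 to 94.1 and 72.9 to 74.6 CPM. In 18M replicate 3, Ift88 was high at 84.9 CPM, where the others had 67.6 to 68.6, and Pde6d was low at 22.7 CPM, where the others had 31.8 to 33.3.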

How the results depend on the processing

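The 24M call of Dync2li1 held under every alternative run except the fit without 24M replicate 4 (log2 fold change -0.48), with an adjusted p of 1.5e-05 to 0.056 over the alternatives in the tools named. The number of members called moved with the handling of the library spread. At 24M it was 1, against 3 in DESeq2, 13 in limma voom with quality weights, 2 in limma on the authors' CPM with a pseudocount of 0.5 or of 2, 6 with the length slope as covariate, 17 with the GC slope and 9 in the 13 libraries, and 0 to 2 with 1 library left out. The 2 on the authors' CPM were 4.44%, against 3.73% of all genes with the smaller pseudocount and 3.75% with the larger. The 2 called without 12M replicate 4 were 4.44% against 5.95%. For all genes the 24M count was 518, against 1394 with the length slope, 2474 with the GC slope, 2880 in the 13 libraries and 3311 with quality weights. At 18M the members called were 0, against 2 in DESeq2, 6 with quality weights, 1 in the fit of both ages alone (2.22% against 4.04% of all genes), 2 with the length slope (4.44% against 5.44%), 4 with the GC slope (8.89% against 9.07%) and 3 in the 13 libraries (6.67% against 5.95%), and 0 to 1 with 1 library left out. The 1 called without 12M replicate 4 was 2.22% against 4.22% of all genes. At 12M they were 0, against 22 with quality weights, 1 with the GC slope (2.22% against 4.93% of all genes) and 18 in the 13 libraries, and 0 to 1 with 1 library left out. For any age they were 0, against 2 in DESeq2, 1 in limma voom (2.22% against 2.85% of all genes), 21 with quality weights, 4 with the length slope (8.89% against 7.23%), 11 with the GC slope (24.4% against 14.5%) and 11 in the 13 libraries (24.4% against 29.1%), and 0 to 1 with 1 library left out. The 1 called without 12M replicate 4 was 2.22% against 4.46%. For linear age they were 1, against 4 in DESeq2 (8.89% against 6.5% of all genes), 8 with quality weights (17.8% against 19.6%), 2 on the authors' CPM with either pseudocount (4.44% against 4.15% and 4.18%), 6 with the length slope (13.3% against 9.6%), 16 with the GC slope (35.6% against 18.3%) and 6 in the 13 libraries (13.3% against 8.67%), and 1 to 4 with 1 library left out, the highest without 24M replicate 3 (8.89% against 6.95%). Member transcripts called at 24M were 0, against 5 in DESeq2 (2.48% against 2.58% of all transcripts) and 1 in limma voom (0.495% against 1.19%). Quality weights gave 5, or 2.48%, a smaller share than among all transcripts. The fit of both ages alone called 2 (0.99% against 0.815%) and the length slope 6 (2.97% against 2.35%). With the GC slope there were 10 (4.95% against 4.26%), and in the 13 libraries 6 (2.97% against 4.56%). A minimum of 5 CPM gave 1 (0.709% against 1.99%). With 1 library left out the count was 0 to 3, the highest without 12M replicate 4 (1.49% against 1.73%). The cause of these moves was not tested. With the length slope the 24M log2 fold change turned to 0.01 for Ift27, -0.07 for Bbs12, -0.33 for Cep290 and -0.24 for Rpgr, none of them called, and with 1 library left out it ran from -0.04 to 0.35 for Bbs12 and from -0.01 to 0.49 for Cep290, below 0 without 3M replicate 4. The deviations of 24 pairs of libraries that share a replicate number had correlations of -0.764 to 0.735, and 12 of these were above 0.1. The mean correlation was 0.0165 in the 24 pairs, against -0.00425 in 72 pairs with different numbers. The numbers were therefore not taken to pair libraries. With the replicate number as a block, 1 member was called at 24M (2.22% against 3.65% of all genes) and 1 for linear age (2.22% against 4.05%). At 12M, at 18M and for any age 0 were called, where 1.12%, 2.21% and 2.18% of all genes were. Cluap1 and Wdpcp were not called at 24M in that fit (adjusted p = 0.064 and 0.069, edgeR). Both also lost their 24M calls with no filter and in the fit of both ages alone, and Wdpcp on the authors' CPM with either pseudocount.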
